A study of Mus musculus with 441 samples.

Results

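Hist1h2ah-positive serum cells were mouse embryonic stem cells of the v6.5 line, grown in serum+LIF, selected on their measured level of the histone H2A gene Hist1h2ah, 10 TPM or more. They numbered 92 of 183 serum cells, 44 of 90 on serum plate 1 and 48 of 93 on serum plate 2, and 415 single cells were profiled in all. The cells they were set against, Hist1h2ah-negative serum cells, had under 1 TPM of the gene and numbered 83, 41 on plate 1 and 42 on plate 2. The remaining 8 serum cells lay in between and entered no class. TPM is a length-normalised share of the transcripts of a cell, so it holds no sequencing depth, which is unknown here. Both classes came from the same culture condition and the same plates, loaded from microfluidic C1 chips whose chambers were checked by eye for a cell, and differed in no treatment. LIF, leukaemia inhibitory factor, holds these cells in self-renewal. Values from 94 v6.5 cells in 2i+LIF, a medium with inhibitors of the kinases MEK and GSK3, and from 84 Dgcr8 knockout cells in serum+LIF, which lack a partner of Drosha needed to make most microRNAs, stand beside the serum values. Values of 54 neural precursor cells, nestin-positive and made from the v6.5 line, are given for Hist1h2ah only. Serum cells came from 2 plates and each other cell population from 1.

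Replication-dependent histone genes supply the core histones H2A, H2B, H3 and H4 and the linker H1 while DNA is copied, and are known for high mRNA levels in S phase. Their mRNAs mostly end in a stem-loop in place of a poly(A) tail, which the stem-loop binding protein Slbp recognises. Embryonic stem cells have a short G1 phase and spend much of their cycle in S phase. The kit that made the cDNA primes on poly(A), so histone mRNA without a tail is reached poorly. Mouse H2A genes lie in clusters as near-identical copies, and the reads here were 25 bases long, so a read can belong to several copies.

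The 250 bases before the start of Hist1h2ah are shown with those of Hist1h2ai, the H2A copy with the lowest positive-minus-negative difference among the histone genes tested in serum plate 1. Both are from RefSeq with the build GRCm38.p6, each written 5′ to 3′ on its own strand, Hist1h2ah (H2ac12 in RefSeq) at chr13:22035644-22035893 on the minus strand and Hist1h2ai (H2ac13) at chr13:21716162-21716411 on the plus strand. Capitals mark 3 motifs on either strand: the CCAAT box, a TATATA run, and the octamer ATGCAAAT.
Hist1h2ah: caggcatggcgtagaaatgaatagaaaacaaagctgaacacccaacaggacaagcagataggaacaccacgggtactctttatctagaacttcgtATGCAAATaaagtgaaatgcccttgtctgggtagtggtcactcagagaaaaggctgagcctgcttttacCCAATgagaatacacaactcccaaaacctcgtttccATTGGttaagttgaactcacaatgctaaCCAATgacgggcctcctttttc
Hist1h2ai: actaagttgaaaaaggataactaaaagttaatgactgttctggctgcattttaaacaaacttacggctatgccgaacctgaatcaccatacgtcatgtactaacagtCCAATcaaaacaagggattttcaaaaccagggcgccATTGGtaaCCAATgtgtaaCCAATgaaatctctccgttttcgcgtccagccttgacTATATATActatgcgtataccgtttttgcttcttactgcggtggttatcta
The Hist1h2ah window held 3 matches to CCAAT and the Hist1h2ai window 4. CCAAT was in 33.8% of the 32851 windows of the same length in the RefSeq table, both strands counted. The octamer ATGCAAAT matched once in the Hist1h2ah window and not in that of Hist1h2ai, and 1.60% of all windows held it. TATATA matched at 2 overlapping places in the Hist1h2ai window and at none in that of Hist1h2ah, with 5.25% of all windows holding it, and the common box TATAAA, in 12.4% of windows, was in neither. These matches describe letters and bear on no factor.

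Hist1h2ah split the serum cells into separate ranges, which the selection fixed. In positive cells the lowest, median and highest TPM were 13, 84.9 and 437.0 on plate 1, and 11.9, 64.6 and 476 on plate 2. The highest value among negative cells was 0.420 TPM on plate 1 and 0.0167 TPM on plate 2. Between the thresholds, the cells on plate 1 ran up to 7.25 TPM and those on plate 2 up to 9.79 TPM, with 2.86 TPM the lowest. Positive cells made up 48.9% of plate 1 and 51.6% of plate 2, 48.9% of 2i cells, 45.2% of Dgcr8 knockout cells and 14.8% of neural precursor cells. The share was thus near that of serum in the other stem cell plates and lower in the 8 of 54 neural precursors, a plate-level difference with 1 plate and no test.

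Most negative cells were not at 0. On plate 1, 27 of 41 negative cells had a Hist1h2ah value above 0 and under 1e-06 TPM, 11 were at exactly 0 and 3 lay higher. On plate 2, 27 of 42 were above 0 and under 1e-06 TPM, 13 were at exactly 0 and 2 lay higher. The median over negative cells was 6.06e-134 TPM on plate 1 and 3.33e-179 TPM on plate 2. RSEM, a tool named in the submitters' processing notes, shares reads that match several transcripts among them by repeated estimation. A value this small is far under what 1 read is worth. Of the 83 serum values of Hist1h2ah under 1 TPM, 54 were of this vanishing kind. In the serum cells, vanishing values made up 29.5% of all Hist1h2ah values, 4.96% of values of the 14 other H2A genes and 0.109% of values of names that do not start with Hist. Only 61 of 9652 tested names had 10 or more vanishing serum values, 12 of them Hist names, and 7 names had more than Hist1h2ah. How far the sharing of reads set the classes was not tested.

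**Figure D1:**
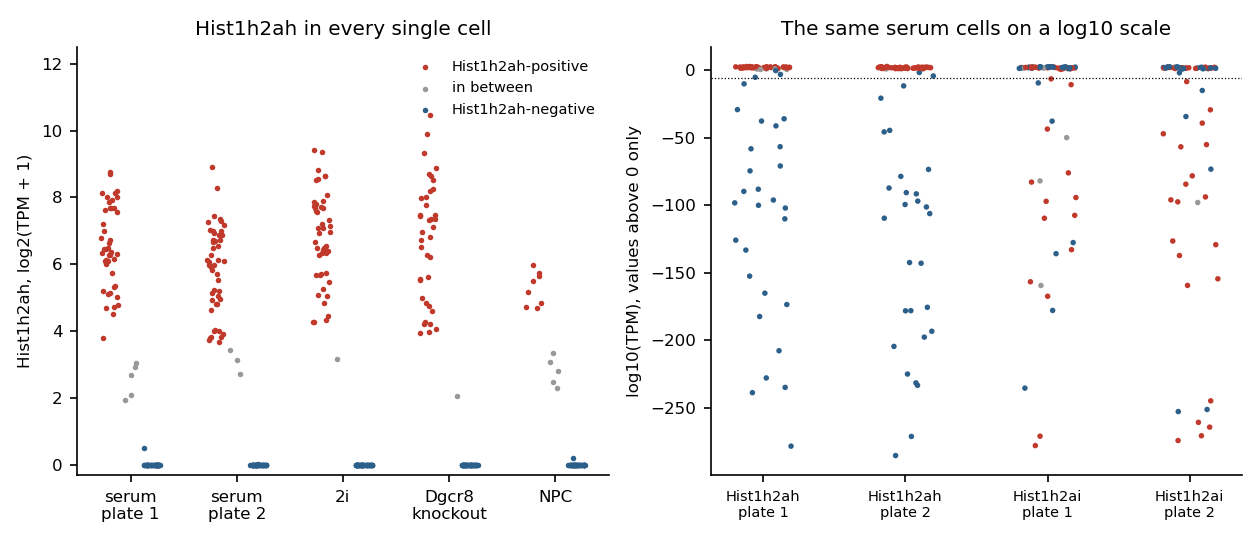
Left, log2(TPM + 1) of Hist1h2ah, 1 point a cell, by plate or population, with positive cells (red) left of cells in between (grey) and negative cells (blue). Right, log10 of TPM for serum values above 0 of Hist1h2ah and Hist1h2ai, coloured by the same classes, with a dotted line at 1e-06 TPM; the values fall into a band above the line and a tail that reaches far below it.

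Single H2A copies differed in either direction. Hist1h2ai, another H2A gene, was at 10 TPM or more in 23 of 44 positive and 27 of 41 negative cells on plate 1, and in 20 of 48 positive and 21 of 42 negative cells on plate 2. Its vanishing values were in 14 positive and 6 negative cells on plate 1, and in 21 positive and 5 negative cells on plate 2. Its mean log2(TPM + 1) was lower in positive cells, by a difference of -0.95 on plate 1 and -0.67 on plate 2. In 2i and Dgcr8 knockout cells, the differences of Hist1h2ai were -0.43 and -0.42. Hist1h2af, also an H2A copy, differed by -0.23 and -0.75 in serum plates 1 and 2. Hist2h2aa2 lay higher in positive cells in all 4 plates, by 1.24 and 1.0 on the serum plates, 0.48 in 2i cells and 1.47 in Dgcr8 knockout cells. Its median was 23 TPM in positive and 13.2 TPM in negative cells on plate 1, and 10.4 TPM in positive and 1.11 TPM in negative cells on plate 2, with ranges that overlapped. Because H2A copies can share reads with the gene that chose the cells, their differences are a description and carry no test.

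The classes are called by Hist1h2ah here, since most other histone genes differed little between them in the serum cells. Of 62 Hist names, 43 passed the filter, a mean of at least 1 TPM over serum cells, and 42 of those are not Hist1h2ah. In both serum plates 18 of the 42 (42.9%) were higher in positive cells and 4 were lower, where 24.7% of all other names were higher in both and 24.8% lower in both. The 42 include H2A copies that can share reads with Hist1h2ah, so these counts are a description and bear out no name. Their median difference on the log2(TPM + 1) scale was 0.14 on plate 1 and 0.13 on plate 2, against 0.31 in 2i cells and 0.46 in Dgcr8 knockout cells. Only Hist2h2aa2 was higher by 1 or more in both serum plates. Positive cells had a median of 11 other Hist genes at 10 TPM or more and negative cells 11 on plate 1, and on plate 2 positive cells had 9 and negative cells 8.

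**Figure D2:**
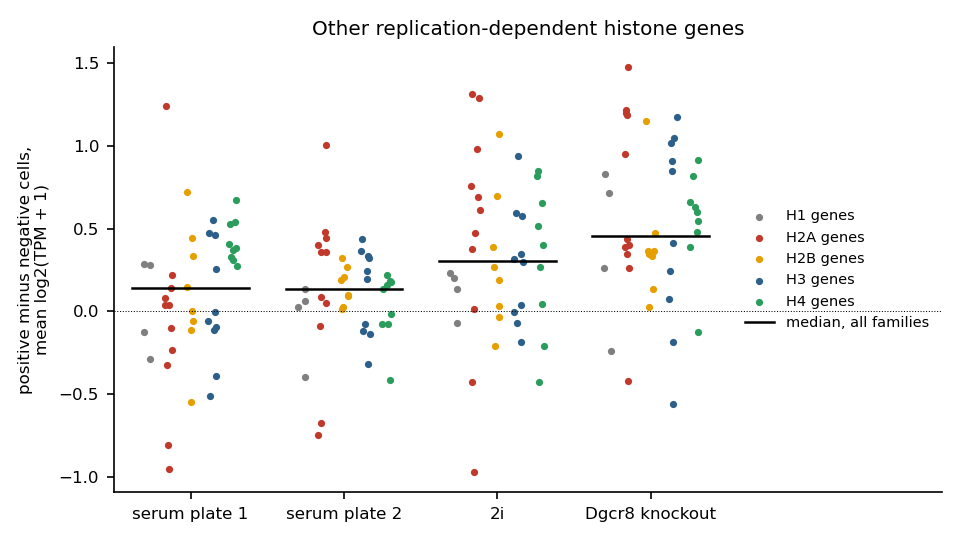
Mean log2(TPM + 1) of positive minus negative cells for the 42 other tested Hist genes, 1 point a gene, by plate and coloured by histone family, with the median as a bar. The medians are 0.14 and 0.13 in the serum plates, 0.31 in 2i cells and 0.46 in Dgcr8 knockout cells.

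Summed by family, the other histones differed little between the serum classes relative to their spread over cells. The 14 other H2A genes summed to a median of 1403 TPM in positive and 1335 TPM in negative cells on plate 1, and 625 TPM in positive and 557 TPM in negative cells on plate 2. In 2i cells the medians were 1170 TPM in positive and 634 TPM in negative cells, and in Dgcr8 knockout cells 953 TPM in positive and 712 TPM in negative cells. As means of log2(sum + 1), the H2A differences were -0.05 and 0.34 in serum plates 1 and 2, 0.68 in 2i cells and 0.96 in Dgcr8 knockout cells. The SD over cells was 1.21 in positive and 1.61 in negative cells on plate 1, so the classes overlapped widely. Summed H2B genes differed by 0.34 and 0.39 in the serum plates, and summed H3 genes by 0.42 and 0.29. Summed H4 genes differed by 0.31 and -0.03, and H1 genes by -0.17 and 0.03. H2B and H3 thus lay on the positive side in both serum plates and the other families did not.

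Across cells, Hist1h2ah followed the summed other H2A genes less closely in serum than in the other stem cell plates, with no test of that difference. Spearman's rho, a description without a test, was 0.0064 over the 90 cells of serum plate 1 and 0.24 over the 93 of plate 2. It was 0.51 over the 94 2i cells and 0.51 over the 84 Dgcr8 knockout cells. The points share a library and can share reads. Hist1h2ah held 3.99% of the TPM of all H2A genes on plate 1 and 4.69% on plate 2, while Hist1h2ap, the most abundant copy of those measured, held 56.6% and 55.8%.

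**Figure D3:**
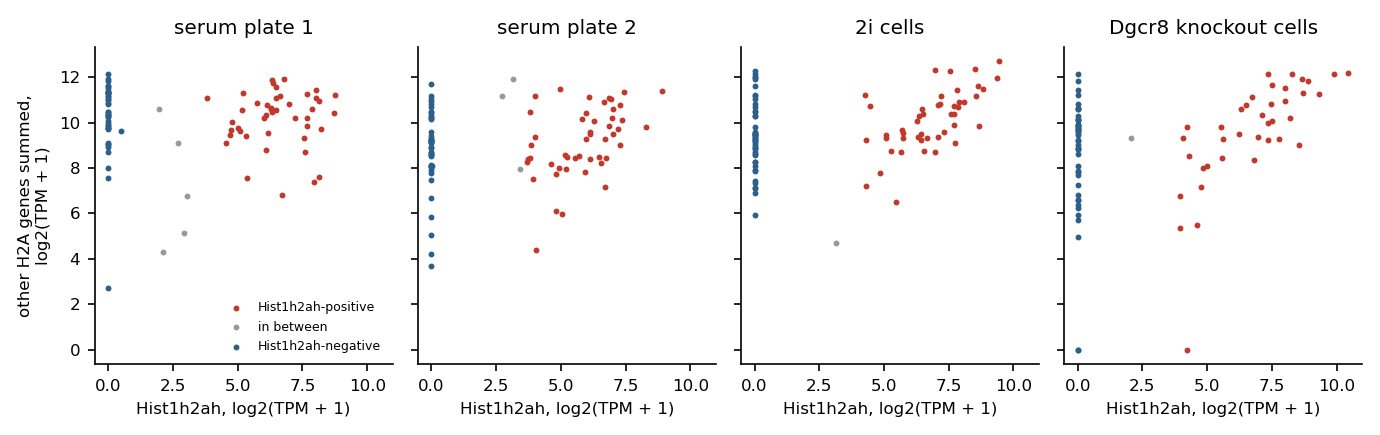
Each point is a cell, with log2(TPM + 1) of Hist1h2ah on the x axis and of the summed other H2A genes on the y axis, 1 panel a plate, positive cells in red and negative cells in blue. In serum plate 1 both classes span much the same H2A range (rho 0.0064), and in 2i and Dgcr8 knockout cells the sum tends to be higher where Hist1h2ah is higher.

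Bulk libraries of the same conditions listed Hist1h2ah at 0 in both serum libraries, at 3.09e-122 TPM in the 2i library, and at 3.01 and 4.53e-137 TPM in the Dgcr8 knockout libraries. All 15 H2A genes summed to 9.67 and 22.2 TPM in the serum bulk, 65.5 TPM in 2i bulk, and 117.3 and 269 TPM in Dgcr8 knockout bulk. These sums were far under the medians of single cells, and the tables were normalised separately, so the levels are set side by side only. In bulk, fewer cells with the mRNA and less mRNA per cell cannot be told apart. In the serum ChIP-seq table, raw counts in 1 window of 1000 bases per gene with 1 library per mark, the Hist1h2ah window (mm9, chr13:22126921-22127921) held 1513 reads of RNA polymerase II, more than 99.9% of the 23167 windows. It held 633 reads of H3K27ac and 874 of H3K4me3, both marks of active promoters, above 94.6% and 69.4% of windows. The repressive marks H3K27me3 and H3K9me3 had 7 and 2 reads, above 5.16% and 0.38% of windows. The whole cell extract had 12, above 18.9%. Counts summed over all windows were 15315269 for H3K4me3 and 4068406 for H3K27ac, against 815042 for H3K27me3 and 408324 for H3K9me3. Raw counts thus do not compare across marks. The polymerase counts of the 68 Hist windows had a median of 1315. The Hist1h2ah window overlapped that of the H2B gene Hist1h2bk by 666 bases, so their reads cannot be told apart, and bulk ChIP gives no value by class.

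Among the genes that are not histone genes by name, the classes differed in few. The classes were averaged within each plate as log2(TPM + 1) and compared with limma, plate as a block. The adjustment ran over 9652 names, Hist names included, and 9609 are read here, 8576 of them with distinct values. Hist1h2ah, which chose the cells, and H2A copies that can share its reads were in the adjustment. The adjusted p of the called names is thus lower than it would be without them. At an adjusted p under 0.05, 1 name was higher in positive cells (0.0104% of those tested) and 2 were lower (0.0208%). At an unadjusted p under 0.05 the count was 441 names (4.59%). By the rule of size, a difference of 1 or more in the same direction in both plates, 1 name was higher (0.0104%) and 0 were lower (0%). In the plates set side by side, 49.5% of names had the same sign in both serum plates, and Pearson's r across names was -0.02, a description over genes that are not independent. The SD of the differences over names was 0.24 on plate 1 and 0.21 on plate 2. The median SE of a difference was 0.15, and the median 95% interval reached 0.32 to either side, so differences under that size were not detectable for a typical gene, before any adjustment. With 2 plates, which no label describes as separate cultures, a p-value here reflects the spread of the class difference between plates, mostly as pooled over genes. The fit had 1 residual degree of freedom per gene and 13.5 from that pool. The spread may be technical.

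The name that rose was AK195788, a transcript known only by its clone name. Its lowest, median and highest TPM were 0, 0.0331 and 227 in positive cells and 0, 2.94e-14 and 186 in negative cells on plate 1. On plate 2 they were 0, 9.05e-11 and 238 in positive cells and 0, 1.1e-18 and 405 in negative cells. It was at 10 TPM or more in 18 of 44 positive and 9 of 41 negative cells on plate 1, and in 12 of 48 positive and 3 of 42 negative cells on plate 2, so the ranges overlapped and the shares of high cells differed. The difference was 1.19 ± 0.17 (SE, log2(TPM + 1), limma adjusted p = 0.0127, n = 2 plates), 1.27 on plate 1 and 1.10 on plate 2. In 2i cells it was 0.82 and in Dgcr8 knockout cells -0.36. Like Hist1h2ah, AK195788 had vanishing values, in 57.4% of serum cells, and their part in the result was not tested.

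The names that fell were AK186650, also known by a clone name, and Mylpf, the fast-muscle myosin regulatory light chain. AK186650 had medians of 73.5 TPM in positive and 91.1 TPM in negative cells on plate 1, and 105.3 TPM in positive and 134.4 TPM in negative cells on plate 2. Its difference was -0.76 ± 0.11 (SE, limma adjusted p = 0.0154, n = 2 plates), -0.59 and -0.92 by plate. Its vanishing values were in 6 positive and 4 negative cells on plate 1, and in 5 positive and 0 negative cells on plate 2, and they lie many log2 units under the medians. Mylpf ran from 0 over a median of 71.8 to 217 TPM in positive cells, and from 0 over 87.6 to 299 TPM in negative cells on plate 1. On plate 2 its lowest, median and highest were 2.67, 121.4 and 1391 TPM in positive cells and 18.9, 165.8 and 1803 TPM in negative cells. Mylpf differed by -0.67 ± 0.10 (SE, limma adjusted p = 0.0154, n = 2 plates), -0.55 and -0.78 by plate, with no vanishing value in serum. In 2i cells the differences of AK186650 and Mylpf were -0.78 and 0.01, and in Dgcr8 knockout cells -0.17 and -0.35. All 3 calls were lost under most other settings: of 10 that changed the fit, AK195788 held in 2, AK186650 in 1 and Mylpf in 2. On the log2 of the mean TPM the difference was 0.705 for AK195788 and -0.27 for AK186650.

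**Figure D4:**
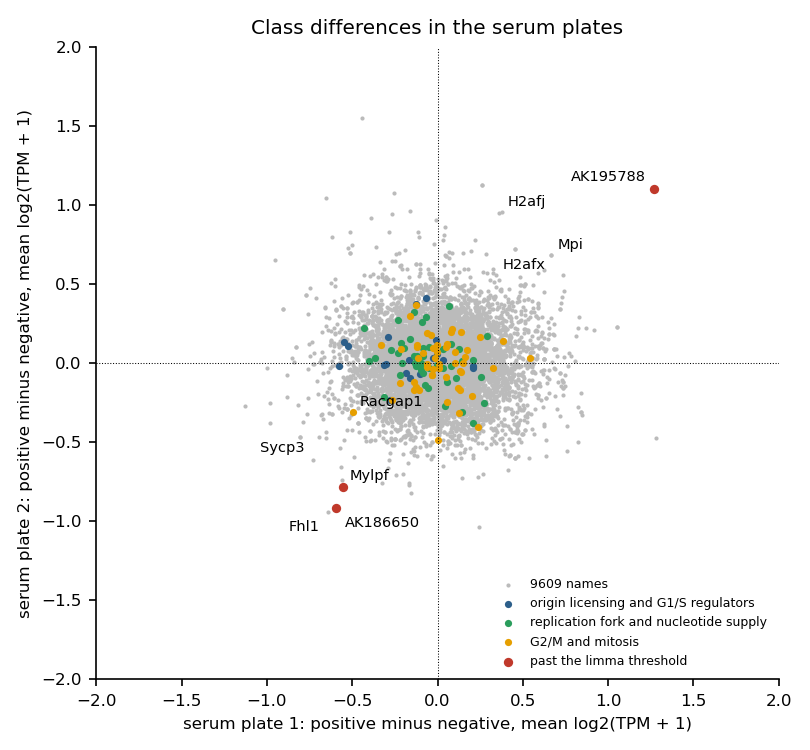
Mean log2(TPM + 1) of positive minus negative cells in serum plate 1 (x axis) and serum plate 2 (y axis), 1 point for each of 9609 names, with members of 3 gene lists coloured and the 3 names past the limma threshold in red. The cloud is round (r = -0.02), and AK195788 stands off at 1.27 and 1.10.

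Next to those 3, the names with the largest difference shared by both plates did not pass the test. The 5 described on the higher side are a choice and not the top 5. Clptm1l (0.74 and 0.56), AK034302 (0.51 and 0.50) and lpr (0.56 and 0.49) ranked above Abhd12 and Tank. On the higher side, Mpi, mannose phosphate isomerase, differed by 0.67 and 0.68 in plates 1 and 2 and Dcaf11, a receptor subunit of a CUL4 ubiquitin ligase, by 0.63 and 0.59. Carkd, a repair enzyme for damaged NADH, differed by 0.59 and 0.57, Abhd12, a serine hydrolase of lipids, by 0.51 and 0.49, and Tank, an adaptor of NF-kB signalling, by 0.49 and 0.50. In 2i cells the same names gave -0.14 for Mpi, -0.36 for Dcaf11, -0.40 for Carkd, 0.32 for Abhd12 and -0.04 for Tank, so 4 of the 5 lay on the other side there. In Dgcr8 knockout cells these names gave -0.48 for Mpi, -0.44 for Dcaf11, -0.10 for Carkd, 0.22 for Abhd12 and 0.15 for Tank. Of these 5, only Abhd12 was on the higher side in all 4 plates. On the lower side, Fhl1, a LIM-domain protein, differed by -0.64 and -0.94 and Sycp3, a synaptonemal complex protein, by -0.73 and -0.61. Fhl1 had a median of 1.99 TPM in positive and 5.57 TPM in negative cells on plate 2, and 5.76 TPM in positive and 5.89 TPM in negative cells on plate 1. Blvrb, a biliverdin reductase, differed by -0.56 and -0.74, Agk, a mitochondrial lipid kinase, by -0.57 and -0.66, and Pecam1, an adhesion molecule, by -0.57 and -0.54. In 2i cells the lower-side names gave -0.30 for Fhl1, -0.49 for Sycp3, -0.18 for Blvrb, 0.17 for Agk and -0.07 for Pecam1. In Dgcr8 knockout cells they gave 0.31 for Fhl1, -0.32 for Sycp3, -0.07 for Blvrb, -0.14 for Agk and -0.32 for Pecam1, so that Sycp3, Blvrb and Pecam1 were on the lower side in all 4 plates. Their adjusted p (limma) was 0.32 for Blvrb, 0.34 for Fhl1, 0.50 for Sycp3, 0.72 for Agk and 0.73 for Pecam1. In the fit over the 4 stem cell plates, 0 names were higher and 0 lower (0% each) at an adjusted p under 0.05 by limma, and 430 (4.47%) had an unadjusted p under 0.05.

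Genes of the cell cycle showed no called difference between the classes. Of 21 tested regulators of origin licensing and the G1/S transition, 0 were called. In both serum plates 1 (4.76%) was higher and 7 (33.3%) were lower, against 24.7% and 24.8% of all names. The median difference was -0.13 on plate 1 and -0.01 on plate 2. The medians over all names were -0.0059 and 0.0044. Ccne1, cyclin E1, which drives entry into S phase with Cdk2, had a median of 29.9 TPM in positive and 38.2 TPM in negative cells on plate 1, and 22.8 TPM in positive and 27.5 TPM in negative cells on plate 2. Its difference was -0.26 with a 95% interval of -0.51 to -0.0040, and it did not pass the adjusted threshold. Ccne2, cyclin E2, differed by -0.58 and -0.02, so that 1 plate carried it. Mcm5, a subunit of the replicative helicase, differed by -0.29 and 0.17, and Cdt1, a licensing factor, by -0.13 and 0.37. Neither kept 1 direction over the plates.

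The replication machinery itself lay close to even. Of 47 genes of the replication fork and nucleotide supply, 0 were called, with medians of -0.08 and 0.01. In both plates 7 (14.9%) were higher and 11 (23.4%) lower, against 24.7% and 24.8% of all names. Pcna, the sliding clamp of the DNA polymerases, had medians of 205 TPM in positive and 222 TPM in negative cells on plate 1, and 202 TPM in positive and 214 TPM in negative cells on plate 2. Its difference was -0.08 with a 95% interval of -0.25 to 0.10. Cdc45, part of the helicase complex, differed by -0.31 and -0.21, Clspn, a fork checkpoint adaptor, by 0.07 and 0.36, and Exo1, an exonuclease, by 0.29 and 0.17. Of 26 tested genes of histone supply and chromatin assembly, 0 were called, with medians of -0.07 and 0.03. Slbp, which binds the histone mRNA stem-loop, had medians of 1299 TPM in positive and 1124 TPM in negative cells on plate 1, and 1034 TPM in positive and 1002 TPM in negative cells on plate 2. Its difference was 0.10 with a 95% interval of -0.03 to 0.22. Lsm10 and Lsm11, subunits of the U7 particle that cuts histone pre-mRNA, differed by 0.52 and 0.10, and by 0.04 and 0.39.

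G2 and mitosis genes were balanced in serum. Of 53 tested, 0 were called, and the median was 0.00 on either plate. In both plates 13 (24.5%) were higher and 12 (22.6%) lower, near the 24.7% and 24.8% of all names. In 2i cells 14 were higher and 39 lower, with a median of -0.09, where 4707 of all names were higher and 4811 lower. In Dgcr8 knockout cells 11 were higher and 42 lower, with a median of -0.27, where 4300 of all names were higher and 5246 lower, with a median of -0.04. Ccnb1, the mitotic cyclin B1, differed by 0.08 and 0.20 in serum, -0.18 in 2i cells and -0.40 in Dgcr8 knockout cells. Cdk1, its kinase partner, differed by 0.09 and 0.22 in serum. Racgap1, needed for cytokinesis, had the lowest value of the list, -0.50 and -0.31, and a median of 12.2 TPM in positive and 18.1 TPM in negative cells on plate 1.

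**Figure D5:**
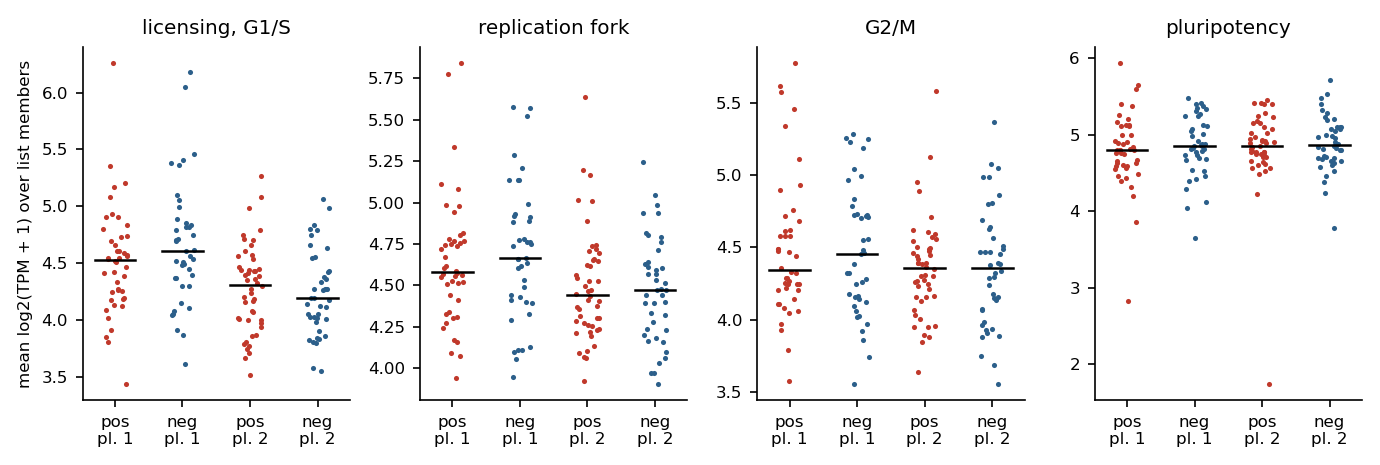
Mean log2(TPM + 1) over the tested members of 4 gene lists, 1 point a cell, with the median as a bar; within each plate positive cells (red) stand left of negative cells (blue). The classes overlap widely in each list and plate. In the pluripotency list the positive class reaches lower, to 2.82 against 3.65 on plate 1 and 1.74 against 3.78 on plate 2.

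Most histone variants that are not strictly tied to S phase lay on the positive side in serum. Of 9 tested, 0 were called, 7 (77.8%) were higher in both serum plates and 0 were lower, with medians of 0.18 and 0.06. Over all names, 24.7% were higher and 24.8% lower in both. H2afz and H2afv are listed with identical values, so they are 1 measurement under 2 of the 9 names. H2afj, an H2A variant, had medians of 49.9 TPM in positive and 37.6 TPM in negative cells on plate 1, and 23.8 TPM in positive and 12 TPM in negative cells on plate 2. Its difference was 0.67 ± 0.14 (SE, limma adjusted p = 0.34, n = 2 plates), 0.38 and 0.96 by plate, with 0.56 in 2i cells and 0.89 in Dgcr8 knockout cells. H2afx, the variant phosphorylated at DNA breaks, had medians of 67.9 TPM in positive and 55.9 TPM in negative cells on plate 1, and 28.1 TPM in positive and 18.4 TPM in negative cells on plate 2. It differed by 0.34 and 0.56 in serum, 0.23 in 2i cells and 0.68 in Dgcr8 knockout cells, with an adjusted p of 0.71 (limma) in serum. Both thus lay higher in positive cells in each of the 4 plates, while the list as a whole had 3 members higher and 6 lower in 2i cells, and 3 higher and 6 lower in Dgcr8 knockout cells (medians -0.05 and -0.18). Both are H2A genes, and whether they share reads with Hist1h2ah was not tested. When only cells at 100 TPM or more counted as positive (18 on plate 1 and 17 on plate 2), 61 of the 9609 names passed. Of these, 36 were higher and 25 lower, with 2 of the 3 calls above among them. At that setting limma pooled the spread over genes in full, and most other settings called no name. Among the 61 were 6 list members. Of the 9 tested histone variants they were H2afj (1.08) and H2afx (0.95), and of 16 p53 targets and cell cycle inhibitors Cdkn1a (0.84). Of 79 ribosomal protein genes it was Rps2 (0.37), and of 22 pluripotency genes Dppa3 (-0.60) and Dppa5a (-0.38). The share of list members was not tested against the 61 of all 9609 names.

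Both classes carried the markers of embryonic stem cells. Nanog was at 1 TPM or more in each positive and each negative serum cell, with medians of 771 TPM in positive and 770 TPM in negative cells on plate 1, and 1621 TPM in positive and 1602 TPM in negative cells on plate 2. Sox2 was low throughout, with medians of 6.73 TPM in positive and 6.42 TPM in negative cells on plate 1. The difference of Nanog was -0.02 with a 95% interval of -0.15 to 0.10. Pou5f1, the Oct4 gene, differed by 0.19 and -0.06, and Sox2 by 0.18 and -0.23. Of 22 tested pluripotency genes 0 were called, with medians of -0.06 and -0.03. In both plates 0 were higher and 7 (31.8%) lower, against 24.7% and 24.8% of all names. Dppa5a, an RNA-binding protein of stem cells, had medians of 5972 TPM in positive and 7037 TPM in negative cells on plate 1, and 9545 TPM in positive and 10639 TPM in negative cells on plate 2. Its difference was -0.26 ± 0.06 (SE, limma adjusted p = 0.34, n = 2 plates), and it passed when only cells at 100 TPM or more counted as positive. Dppa2 differed by -0.25 and -0.25, Dppa4 by -0.22 and -0.30, and Dnmt3l, a cofactor of the DNA methyltransferases, by -0.32 and -0.25. The lowest cell of Dppa4 was at 0 in the positive class of each plate, against 19 and 19.9 TPM in the negative class of plates 1 and 2. Averaged over the list, the lowest cell had 2.82 in the positive and 3.65 in the negative class on plate 1, and 1.74 in the positive and 3.78 in the negative class on plate 2, as mean log2(TPM + 1).

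The other lists held 0 calls each. By limma at an unadjusted p under 0.05, where 4.59% of all names fell, the counts were 1 for the licensing and G1/S list, 0 for the fork and 0 for the histone supply list. They were 2 for the histone variants, 1 for G2/M, 3 for pluripotency, 3 for the immediate early and stress genes, 3 for glycolysis, and 1 each for the primed epiblast, p53 and ribosomal protein lists. The counts by direction that follow stand against 24.7% of all names higher and 24.8% lower in both plates. Of 8 tested primed epiblast genes, 2 were higher and 1 lower in both plates. Of 16 p53 targets and cell cycle inhibitors, 5 were higher and 1 lower, with medians of 0.20 and -0.02. Btg2, an antiproliferative p53 target, differed by 0.45 and 0.33, while Cdkn1a, the p21 inhibitor of cyclin-dependent kinases, differed by 0.77 and -0.02 and passed only with the 100 TPM threshold. Of 11 immediate early and stress genes, 4 were higher, Ier2 by 0.59 and 0.35 among them, and 5 were lower, Ier3 by -0.50 and -0.42 among them. Of 79 ribosomal protein genes, 25 were higher and 17 lower in both plates, and of 19 glycolysis genes, 6 were higher and 3 lower.

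Genes detected per cell stood close between the classes, and the sums over markers of other cell types varied widely within each class. Genes detected at 1 TPM or more had a median of 7799 in positive and 7762 in negative cells on plate 1, and 7647 in positive and 7600 in negative cells on plate 2. Of the 13 fibroblast and feeder markers, 8 were at 0 in every cell of each class, and the sum ran from 8.77 to 1109 TPM in positive cells and from 8.13 to 1421 TPM in negative cells on plate 1. On plate 2 the sum ran from 18.2 over 241 to 3030 TPM in positive cells and from 25.3 over 275 to 2664 TPM in negative cells. S100a6 was the highest of the 4 members tested. Its mean log2(TPM + 1) was 6.22 in positive and 6.72 in negative cells on plate 1, and 7.90 and 7.79 on plate 2. That of Acta2, the next, was 4.46 and 4.60 on plate 1, and 3.40 and 3.42 on plate 2. The primitive endoderm markers summed to a median of 2.18 TPM in positive and 1.74 TPM in negative cells on plate 1, and 2.12 TPM in positive and 2.02 TPM in negative cells on plate 2. The trophoblast markers summed to a median of 23 TPM in positive and 31.2 TPM in negative cells on plate 1, and 20.3 TPM in positive and 17.4 TPM in negative cells on plate 2. Their highest cell on plate 2 had 8147 TPM in the positive and 1676 TPM in the negative class. Of 13 two-cell-like markers, 9 were measured and 8 of those were at 0 in every cell of both classes. Their sum is thus the value of Eif1a alone. Its median was 74.4 TPM in positive and 87.9 TPM in negative cells on plate 1, and 88.7 TPM in positive and 80.5 TPM in negative cells on plate 2. The part of these values in the differences above was not tested.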

How the data were processed

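Single cells were captured on C1 chips and amplified with the SMARTer Ultra Low kit, and libraries were read as 25-base pairs, per the labels' protocols. The authors deposited the natural log of TPM + 1 for each gene; Bowtie, RSEM and build mm9 are named in the submitters' processing notes, without versions or roles, and the annotation was not stated. The ChIP table, as deposited by the authors, holds raw counts in windows of 1000 bases; where the window lies relative to the gene is not stated. TPM holds no depth, so depth per cell is unknown and genes detected are given in its place.

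Here TPM was recovered from the log, and 59 of 22443 names in the stem cell table that had turned into dates were left out. Class means of log2(TPM + 1), pseudocount 1, were taken within each serum plate for names with a mean of at least 1 TPM, and compared two-sided with limma 3.58.1 in R 4.3.3 (trend, plate as a block, 1 residual degree of freedom, Benjamini-Hochberg over 9652 names, threshold 0.05). Fold changes on this scale understate the change of low genes. Python 3.11.15 was used otherwise, and the fit was tested on simulated data. Cells are not replicates. The plates pair the classes, since positive and negative cells of a plate share that plate; a plate was taken from each cell's title.

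Names in the text are histone genes, the 15 highest and 15 lowest by the smaller plate difference of the same sign, up to 4 members at each end of each list, and a fixed set of cell cycle and pluripotency genes; Hist names were read as no result. Members and lists were chosen with earlier results of these data known. No cell was left out, no doublet caller was run, and no column of per-sample values was unused. Alternatives changed the pseudocount, filter, averaging, centring, class thresholds, block and plates used.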

Additional observations from a re-analysis of the deposited data

Results flagged for a closer look

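AK195788 was higher in positive cells in both serum plates but gave a difference of -0.363 in Dgcr8 knockout cells. Mylpf was lower in both serum plates and gave 0.00804 in 2i cells. Several list medians lay on opposite sides in serum and in another plate. Those of the origin licensing and G1/S regulators, negative in serum, were 0.112 in 2i cells and 0.000882 in Dgcr8 knockout cells. Those of the histone variants, positive in serum, were -0.049 in 2i cells and -0.178 in Dgcr8 knockout cells. Those of the G2/M and mitosis genes, just above 0 in serum, were -0.088 in 2i cells and -0.274 in Dgcr8 knockout cells. Those of the pluripotency genes, negative in serum, were 0.0247 in 2i cells and 0.0101 in Dgcr8 knockout cells. Those of the glycolysis genes, positive in serum, were -0.025 in 2i cells and -0.0466 in Dgcr8 knockout cells. Each value is a positive-minus-negative difference on the log2(TPM + 1) scale from 1 plate, and the differences between plates were not tested.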

How the results depend on the processing

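No name was called higher or lower (0 and 0) with pseudocounts of 0.1 or 10, no filter, a mean of at least 10 TPM, the log2 of the mean TPM, centring on the median gene, adjustment for genes detected, or no replicate block. With positive cells at 100 TPM or more, 36 were higher and 25 lower; there limma pooled the spread over genes in full. The adjusted p (limma) ranged from 0.000111 to 1 for AK195788, from 0.01 to 1 for AK186650 and from 0.0201 to 1 for Mylpf, and none of them reversed. The count higher by 1 or more was 0 after adjustment for genes detected and with pseudocount 10, 2 for the log2 of the mean TPM and 8 with pseudocount 0.1, where 2 were lower. By a single plate, it was 4 to 6 higher and 1 to 2 lower.

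The median difference of the G1/S list was -0.0636 and changed sign to 0.0782 at 100 TPM. That of the G2/M list was -0.0025 and became -0.0323 adjusted for genes detected, -0.00141 centred, 0.0245 for the log2 of the mean, 0.00176 at a mean of 10 TPM, -0.0033 unfiltered, 0.000745 with positive cells at 1 TPM or more, 0.0525 at 100 TPM and 0.00702 with pseudocount 0.1, and 0.00262 to 0.0037 by single plate. That of the pluripotency list was -0.0224 and became 0.02 for the log2 of the mean, and -0.0629 to -0.0279 by single plate. Leaving out cells with few genes removed 0 cells and is not counted. Over the other lists, 19 values moved by more than the spread between plates and 77 did not; over named genes, 319 of 480 kept their side or stayed within it. The cause was not tested. With 2 plates and 1 residual degree of freedom, each call leans on the spread pooled over genes. TPM gives no counting error.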
